A study of Mus musculus with 12 samples.

Results

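Collagens, laminins and integrins are the chains of the extracellular matrix and of the receptors by which cells hold on to it. Here they were described in RNA bound to tagged ribosomes of the mouse hippocampus, in WT and Fmr1 KO males. Members were the genes of the count table whose symbol has the form of a collagen, laminin, integrin alpha or integrin beta chain and which had at least 15 reads summed over the libraries. This gave 82 genes of 17823 tested and 24079 listed: 44 collagens, 11 laminins, 18 integrin alpha chains, 8 integrin beta chains, and Col4a3bp, whose symbol has the form of a collagen although it encodes a ceramide transfer protein. Their total reads ran from 52 for Itga2 to 56924 for Itgb1. Beyond the minimum of 15 reads, the rule used the symbol alone and no difference between genotypes.

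WT animals carried Wfs1-CreERT2:RiboTag and Fmr1 KO animals Wfs1-CreERT2:RiboTag:Fmr1 KO, so both genotypes held the inducible Cre under the Wfs1 promoter and a Cre-dependent HA tag on the ribosomal protein Rpl22. Mice of 2 to 6 months were injected with tamoxifen (100 mg/kg) for 3 days and killed 1 week after that. Each genotype had 6 libraries, each from a separate pool of 4 to 6 mice, and HA was immunoprecipitated from the whole hippocampus, so RNA of other cells could be carried over. The loss of Fmr1 was present in every cell of the animal, not only in the tagged neurons.

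A collagen molecule is a trimer of alpha chains wound into a triple helix, in which each glycine is followed by a pair of other residues, often proline (Gly-X-Y). Fibrillar collagens make the fibres of connective tissue, and in the brain they are mostly made by cells of vessels and meninges. Type IV collagen and laminin trimers of an alpha, a beta and a gamma chain build the basement membrane around vessels. Integrins are pairs of an alpha and a beta chain in the cell membrane that bind these ligands and link them to the cytoskeleton, and in hippocampal neurons beta1 integrins are known for their part in synapse stability and plasticity.

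The feature that the collagens share, and which their symbols alone do not show, is written in their coding sequence. A stretch of 18 codons is shown for the 2 collagens that 1 of the tests called between genotypes, Col1a1 and Col17a1, for Col1a2, the partner chain of Col1a1, and for Col25a1, the collagen with the clearest lower value in Fmr1 KO. Each is read from the reference transcript in frame, 5′ to 3′ on the coding strand (GRCm38), and the capitals mark the glycine codon (GGN) that opens each Gly-X-Y triplet. They lie in coding exons, at chr11:94938504-94938557 (plus strand, Col1a1 exon 5), chr6:4510684-4510737 (plus strand, Col1a2 exon 5), chr19:47666482-47666535 (minus strand, Col17a1 exon 22) and chr3:130476369-130476422 (plus strand, Col25a1 exon 9).
Col1a1: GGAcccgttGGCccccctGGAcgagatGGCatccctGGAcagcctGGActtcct
Col1a2: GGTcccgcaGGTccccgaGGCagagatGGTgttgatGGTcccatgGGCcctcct
Col17a1: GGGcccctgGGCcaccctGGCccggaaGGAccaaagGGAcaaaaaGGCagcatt
Col25a1: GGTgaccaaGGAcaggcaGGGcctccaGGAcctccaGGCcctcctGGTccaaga
Each stretch was taken from the first exon found with 6 Gly-X-Y triplets in a row, and was not picked from the longest run. The longest unbroken run of such triplets was 338 in Col1a1 and 339 in Col1a2, against 56 in Col17a1 and 40 in Col25a1, whose helices are interrupted. Over the 44 collagens it ranged from 23 in Col26a1 to 344 in Col3a1, with a median of 58.5, and all 44 had a run of at least 10. No laminin or integrin exceeded 3, and Col4a3bp had 2. Among the 16259 genes tested that have a coding sequence in the annotation, 84, or 0.517%, had a run of at least 10.

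The genes differed in structure as well as in repeat length. The 11 fibrillar collagens had between 21 (Col1a1) and 33 (Col24a1 and Col27a1) exons of 54 bases. The stretches shown above have the same length but are parts of longer exons. These have 102 bases in Col1a1, 111 in Col1a2, 63 in Col17a1 and 108 in Col25a1. The short chain collagens Col8a1, Col8a2 and Col10a1 had 0 exons of 54 bases, and their reference transcripts had 3 or 4 exons in all, coding or not.

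The libraries held 39400980 to 65565479 reads, and members took 0.0882 to 0.133% of them. Fmr1 itself had 1971 to 2608 reads in the WT libraries and 0 or 1 in the Fmr1 KO libraries, as the labels require. Levels below are normalised read counts scaled to library size (CPM, after TMM normalization), and levels of different genes are compared only as CPM per kb of the longest annotated transcript. Markers of CA1 pyramidal neurons summed to 7592 to 9762 CPM. Markers of astrocytes summed to 1911 to 3018 CPM, of choroid plexus to 6432 to 17627 CPM and of endothelium to 54.7 to 102 CPM, so transcripts of other cell types were present in every library.

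The beta1 integrin chain was the most abundant member. Itgb1, which pairs with most laminin- and collagen-binding alpha chains, stood at 25.6 ± 3.77 CPM per kb in WT (SD, n = 6), above Itgb5, the beta chain that pairs with alphaV, at 10.7 ± 0.966. Itgb2, the leukocyte beta chain, followed at 1.88 ± 0.288, and the other 5 beta chains lay under 1 CPM per kb.

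Among alpha chains, the 3 highest WT means were those of the laminin receptors. Itga7 stood at 7.95 ± 0.955 CPM per kb in WT, Itga6 at 4.69 ± 0.676 and Itga3 at 3.98 ± 0.619. The ranges of Itga6 and Itga3 over libraries met, so their order was not clear of the spread. The ranges of Itga3, Itgav and Itga4 in WT met as well, and in Fmr1 KO the mean of Itgav, at 4.26 CPM per kb, was above that of Itga3, at 4.05. The RGD-binding Itgav at 3.42 and Itga8 at 2.31 CPM per kb, and Itga4 at 3.23, came next. The 4 collagen-binding chains were lower, between 0.00886 (Itga2) and 0.688 (Itga11) CPM per kb.

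Laminin chains were uneven in level within the trimer. Lamc1, the common gamma chain, stood at 9.93 ± 1.75 CPM per kb in WT and Lamb1, a common beta chain, at 9.14 ± 0.620, which did not differ beyond their spread. Lamb2 followed at 4.25 ± 0.359. All 5 alpha chains were below 1 CPM per kb, from 0.295 (Lama1) to 0.919 (Lama2), and Lamb3, a beta chain, stood at 0.252.

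Among collagens the highest level per length was that of Col9a3, a chain of the fibril-associated type IX collagen, at 19.5 ± 3.30 CPM per kb in WT. Its partners Col9a2 and Col9a1 stood at 1.90 and 0.259 CPM per kb. Col8a2, a short chain collagen of basement membranes, followed at 11.9 ± 2.89, then Col4a2, a chain of the vascular basement membrane, at 8.55 ± 1.80, Col8a1 at 6.43 and Col1a2 at 6.05. Col25a1, a transmembrane collagen known from neurons, stood at 5.39 and Col4a1 at 5.21. Of the 81 chains, 30 exceeded 1 CPM per kb and 8 lay under 0.1.

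**Figure D1:**
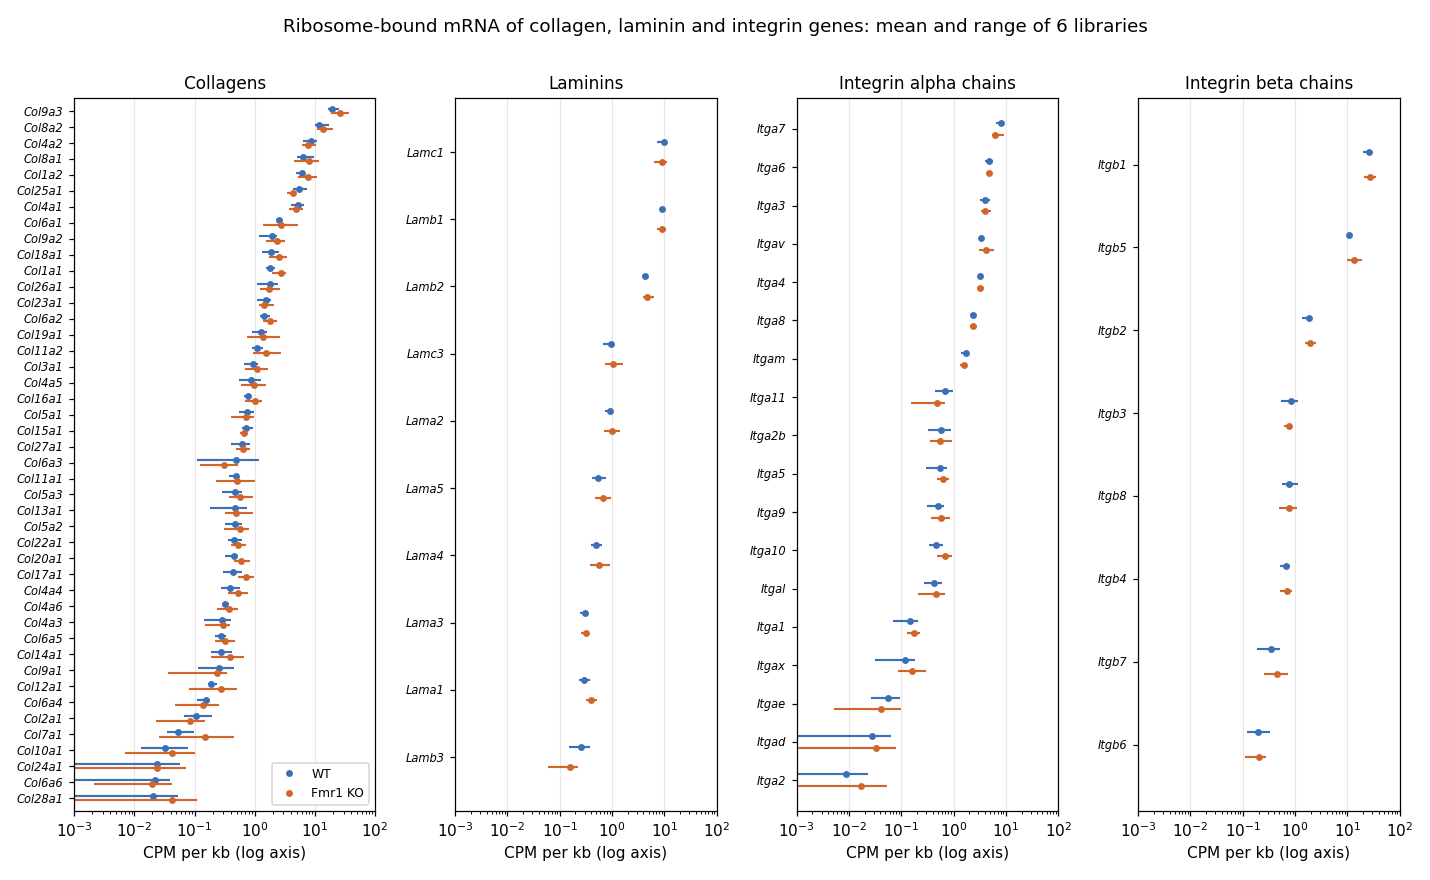
Level of each chain shown in CPM per kb of transcript on a log axis, for WT (blue) and Fmr1 KO (orange), with points at the mean and lines from the lowest to the highest of 6 libraries. Lines that reach the left edge run to a library at or under 0.001 CPM per kb. In both genotypes Itgb1 leads the integrins, Lamc1 and Lamb1 the laminins and Col9a3 the collagens.

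Members as a set lay slightly higher in Fmr1 KO, while none was called by the main test. In edgeR, 0 of 82 members had an adjusted p under 0.05, where the share over all genes tested was 0.0224%, and 0 under 0.1, where it was 0.0337%, and the smallest adjusted p was 0.239, for Col1a1. At an unadjusted p under 0.05 stood 17 members (20.7%), against 7.96% of all genes. Of these, 15 members (18.3%) were higher in Fmr1 KO, against 4.29% of all genes, and 2 members (2.44%) were lower, against 3.67%. A positive log2 fold change was seen in 58 of 82 members (70.7%), against 51.4% of all genes. The median log2 fold change was 0.11 over members and 0.00 over all genes tested.

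DESeq2, the tool of the study, called 2 members at an adjusted p under 0.05, where it called 0.471% of all genes. These were Col1a1 (log2 fold change 0.56, adjusted p = 0.0297) and Col17a1 (0.74, adjusted p = 0.0385), both of which the study lists from these same samples, so neither is independent evidence. Both calls were lost in DESeq2 without Fmr1 KO replicate 1 (adjusted p = 0.161 and 0.188), Fmr1 KO replicate 4 (0.0929 and 0.131), WT replicate 3 (0.133 and 0.142), WT replicate 4 (0.0710 and 0.0595) or WT replicate 6 (0.0686 and 0.0930). Col1a1 alone was also lost without Fmr1 KO replicate 5 (0.126) or WT replicate 5 (0.128), and Col17a1 alone without Fmr1 KO replicate 6 (0.0673), WT replicate 1 (0.0567) or WT replicate 2 (0.183). limma voom called 0, with 11 members higher and 3 lower at an unadjusted p under 0.05. The 6 WT and 6 Fmr1 KO libraries overlapped for every member. Over all genes the libraries of the 2 genotypes lay apart with Fmr1 KO higher in 0.213% and lower in 0.41%.

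Single libraries moved these counts. The count of 15 higher members became 8 without Fmr1 KO replicate 4 and 9 without WT replicate 3 or WT replicate 6, and 20 without Fmr1 KO replicate 2. The median log2 fold change of members ran from 0.07 without Fmr1 KO replicate 1 to 0.20 without Fmr1 KO replicate 2, and was 0.18 without Fmr1 KO replicate 6.

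**Figure D2:**
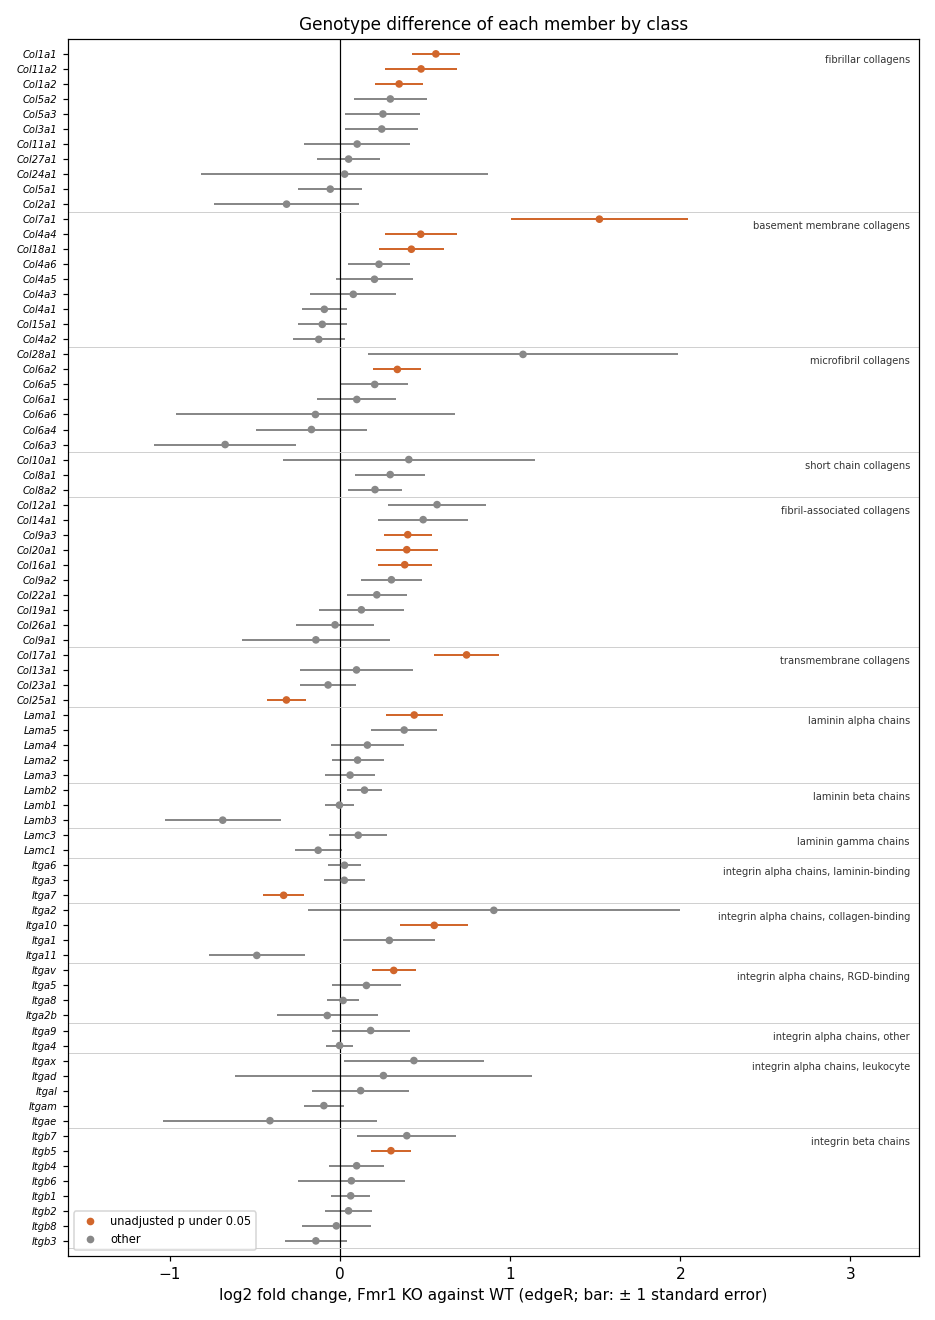
Log2 fold change of each of 80 chains, Fmr1 KO against WT, with lines of 1 standard error, ordered by class, and orange for an unadjusted p under 0.05 in edgeR. Most points lie to the right of 0, Col7a1 lies farthest right at 1.52, and only Col25a1 and Itga7 are orange on the left.

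Fibrillar collagens were among the classes with the most members higher in Fmr1 KO. Of 11, 9 had a positive log2 fold change and 3 an unadjusted p under 0.05, all higher (Col1a1, Col1a2 and Col11a2), with a class median of 0.24. For this and later classes, the shares over all genes at that p were 4.29% higher and 3.67% lower. Markers of fibroblasts and meninges, which make type I collagen, had a median of 0.35. Of these 10 markers 3 had an unadjusted p under 0.05, and their sum, mostly Igf2, differed by 0.02 (log2). The part of these cells in the collagen values was not tested. Col1a1 (Entrez 12842, chr11:94936224-94953042 in GRCm38.p6) encodes the alpha1 chain of type I collagen. It ran from 9.31 to 12.9 CPM in WT (median 10.3) and from 11.7 to 19.5 CPM in Fmr1 KO (median 16.5). Replicates 1, 3, 4 and 5 of Fmr1 KO lay above all WT libraries and replicates 2 and 6 within the WT range. The log2 fold change was 0.56 ± 0.14 (SE), with an unadjusted p of 0.000848 in edgeR.

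Col1a2 (chr6:4505618-4541543), the alpha2 chain of the same trimer, ran from 26.4 to 36.7 CPM in WT (median 33.1) and from 28.0 to 57.1 CPM in Fmr1 KO (median 38.0). Its log2 fold change was 0.35 ± 0.14 (SE, adjusted p = 0.531 in edgeR), and Fmr1 KO replicates 1 and 4 were well above the rest. Without Fmr1 KO replicate 1 it was 0.23. Per length, Col1a2 mRNA exceeded that of Col1a1, by a median ratio of 3.26 in WT and 2.97 in Fmr1 KO libraries. This ratio did not differ between genotypes beyond its spread (exact permutation p = 0.136, two-sided, adjusted p = 0.364 over 8 chain pairs). Col11a2, a chain of type XI collagen, was highest in Fmr1 KO replicate 5, at 16.7 CPM, while the median was 7.89 in Fmr1 KO and 6.31 in WT.

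Basement membrane collagens ranged from near 0 to higher in Fmr1 KO, and none of the 8 chain ratios tested passed between genotypes. The chains of the common vascular network were near 0, with log2 fold changes of -0.09 ± 0.13 (SE) for Col4a1 and -0.13 ± 0.15 for Col4a2, which ran from -0.22 to -0.05 with single libraries left out. Col4a4, a chain of the network known from kidney and other specialised membranes, had 0.47 ± 0.21, while its partner Col4a3 had 0.08 ± 0.25. Col4a5 and Col4a6 had 0.20 ± 0.23 and 0.23 ± 0.18, and Col18a1, the source of endostatin, 0.42 ± 0.19. In Col4a4 and Col18a1, Fmr1 KO replicates 1 and 4 were the highest of all libraries. Of the 9 genes of this class, 3 had an unadjusted p under 0.05, all higher, and the class median was 0.20.

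The third of these was Col7a1 (chr9:108953586-108984875), which encodes the anchoring fibril collagen of skin, at a very low level here. It ran from 0.317 to 0.912 CPM in WT (median 0.420) and from 0.237 to 4.17 CPM in Fmr1 KO (median 0.854). Its log2 fold change of 1.52 ± 0.52 (SE, adjusted p = 0.424 in edgeR) was 0.76 without Fmr1 KO replicate 5, which alone held the value of 4.17.

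The type IV genes lie in head-to-head pairs. Col4a1 and Col4a2 overlap by 85 bases on chromosome 8, Col4a4 and Col4a3 by 114 bases on chromosome 1, and Col4a6 and Col4a5 lie 1274 bases apart on chromosome X. Libraries were prepared with a kit that keeps the strand, and partners lie on opposite strands. The ratio of Col4a2 to Col4a1 per length had a median of 1.57 in WT and 1.58 in Fmr1 KO (exact permutation p = 0.716). For Col4a4 to Col4a3 it was 1.37 and 1.79 (exact permutation p = 0.110), which also did not pass over the 8 pairs.

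Of the 10 genes grouped as fibril-associated collagens, with Col26a1 (-0.03) counted among them, 8 were higher, and the median was 0.34. Col9a3, Col16a1 and Col20a1 had an unadjusted p under 0.05. Col9a3 (chr2:180598102-180622192) ran from 49.9 to 76.4 CPM in WT (median 57.3) and from 56.5 to 113 CPM in Fmr1 KO (median 75.2). The genotypes overlapped, and Fmr1 KO replicate 1 held the highest value. This gave a log2 fold change of 0.40 ± 0.14 (SE, adjusted p = 0.448 in edgeR), and 0.26 without Fmr1 KO replicate 1. Col16a1, found beside fibrils and basement membranes, ran from 3.44 to 4.36 CPM in WT (median 4.17) and from 3.53 to 6.90 CPM in Fmr1 KO (median 5.27), with a log2 fold change of 0.38 ± 0.16.

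The short chain Col8a2 ran from 42.8 to 74.8 CPM in WT (median 46.2) and from 47.2 to 86.0 CPM in Fmr1 KO (median 53.2). Its log2 fold change of 0.21 ± 0.16 (SE) did not pass, and was 0.07 without Fmr1 KO replicate 1 and 0.34 without WT replicate 4. Of the 7 microfibril collagens, Col6a2 alone had an unadjusted p under 0.05 (log2 fold change 0.34 ± 0.14), while its partner Col6a1 was at 0.10 ± 0.23. Col6a3 went the other way, at -0.68 ± 0.42, the lowest value among the collagens.

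Transmembrane collagens held the clearest opposite values. Col17a1 (Entrez 12821, chr19:47646341-47692042), the hemidesmosomal collagen of epithelia, ran from 1.67 to 3.42 CPM in WT (median 2.30) and from 2.98 to 5.36 CPM in Fmr1 KO (median 3.89). WT replicate 5 was the only WT library inside the Fmr1 KO range. The log2 fold change was 0.74 ± 0.19 (SE), with an unadjusted p of 0.00115 and an adjusted p of 0.267 in edgeR.

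Col25a1 (chr3:130180358-130599884), a collagen of the neuronal membrane first known from amyloid plaques, was lower in Fmr1 KO. It ran from 29.3 to 49.3 CPM in WT (median 34.4) and from 23.1 to 32.5 CPM in Fmr1 KO (median 30.1). The highest value was that of WT replicate 4 and the lowest that of Fmr1 KO replicate 5, and the genotypes overlapped. The log2 fold change was -0.32 ± 0.12 (SE, adjusted p = 0.483 in edgeR), and -0.21 without WT replicate 4. Col13a1 and Col23a1, the other two of this class, had log2 fold changes of 0.10 and -0.07.

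**Figure D3:**
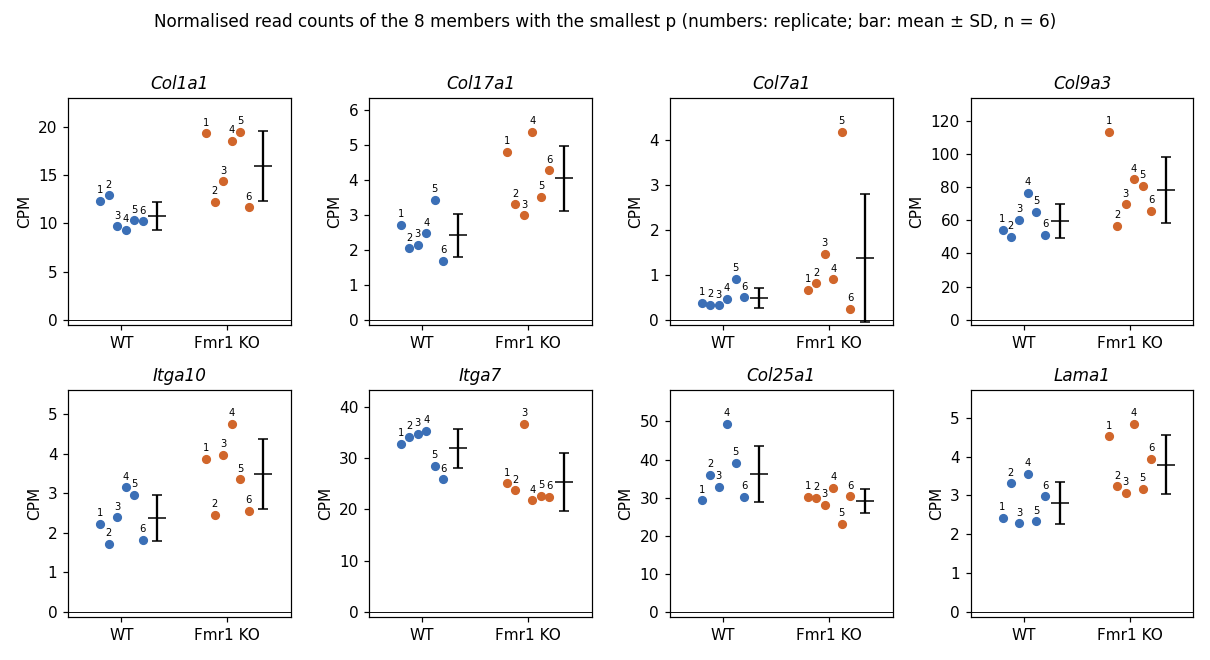
CPM in each library of the 8 members with the smallest p, numbered by replicate, WT in blue and Fmr1 KO in orange, with bars at the mean ± SD of 6 libraries. The Fmr1 KO mean lies above the WT mean for Col1a1, Col17a1, Col9a3, Itga10 and Lama1 and below it for Itga7 and Col25a1. The genotypes overlap in every panel, and single high points carry Col7a1 (4.17 CPM) and stand apart in Itga7 (36.7 CPM).

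Laminins differed little between genotypes at the level of their abundant chains. Lamb1 ran from 49.1 to 58.8 CPM in WT (median 52.0) and from 42.2 to 63.3 CPM in Fmr1 KO (median 53.1), and its log2 fold change was 0.00 ± 0.08 (SE). Lamc1 was at -0.13 ± 0.14 and Lamb2 at 0.14 ± 0.10, which was 0.04 without Fmr1 KO replicate 1. Left-out libraries moved Lamc1 between -0.21 and -0.05. The ratio of Lamc1 to Lamb1 per length had a median of 1.11 in WT and 1.10 in Fmr1 KO (exact permutation p = 0.528).

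All 5 laminin alpha chains had positive log2 fold changes, from 0.06 (Lama3) to 0.44 (Lama1), and 1 had an unadjusted p under 0.05. This was Lama1 (chr17:67697127-67822645), the alpha chain of embryonic and epithelial basement membranes, which ran from 2.28 to 3.55 CPM in WT (median 2.69) and from 3.07 to 4.84 CPM in Fmr1 KO (median 3.59). Fmr1 KO replicates 1 and 4 were the highest, and the genotypes overlapped. The log2 fold change was 0.44 ± 0.17 (SE, adjusted p = 0.499 in edgeR). Lama5, the alpha chain of mature vessels, had 0.38 ± 0.20, and Lamb3, a chain of epithelial laminin at a low level, -0.69 ± 0.34, neither at an unadjusted p under 0.05.

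Integrins held 1 member lower (3.85%) and 3 higher (11.5%) at an unadjusted p under 0.05, of 26. Over all genes tested the shares were 3.67% and 4.29%. The lower one was Itga7 (chr10:128933421-128958286), a laminin receptor chain best known from muscle. It ran from 25.9 to 35.4 CPM in WT (median 33.5) and from 21.8 to 36.7 CPM in Fmr1 KO (median 23.2). All Fmr1 KO libraries but replicate 3 lay below the lowest WT library, and replicate 3 lay above the highest. The log2 fold change was -0.33 ± 0.12 (SE, adjusted p = 0.475 in edgeR), and without replicate 3 it was -0.47 (adjusted p = 0.102 in edgeR). DESeq2 called Itga7 with that library left out.

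The other laminin-binding chains had nearly equal levels in both genotypes. Itga6 ran from 17.3 to 24.4 CPM in WT (median 20.01) and from 18.3 to 23.2 CPM in Fmr1 KO (median 20.8), with a log2 fold change of 0.03 ± 0.10 (SE). Itga3, at a median of 18.9 in WT and 19.7 CPM in Fmr1 KO, had 0.02 ± 0.12. Neither kept its sign when single libraries were left out.

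Of the collagen-binding chains, Itga10 (chr3:96645584-96664519), known from cartilage, was higher. It ran from 1.72 to 3.15 CPM in WT (median 2.31) and from 2.46 to 4.75 CPM in Fmr1 KO (median 3.62), with overlap between the genotypes. This gave a log2 fold change of 0.55 ± 0.20 (SE, adjusted p = 0.460 in edgeR). Itga11 at -0.49, Itga1 at 0.29 and Itga2 at 0.90 did not reach an unadjusted p under 0.05.

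Itgav and Itgb5, the chains of the vitronectin receptor alphaVbeta5, both had higher means in Fmr1 KO and did not pass the adjusted test. Itgav ran from 21.3 to 25.8 CPM in WT (median 24.9) and from 21.7 to 41.1 CPM in Fmr1 KO (median 27.9), with a log2 fold change of 0.32 ± 0.13 (SE, adjusted p = 0.542 in edgeR). Itgb5 ran from 31.8 to 40.2 CPM in WT (median 33.9) and from 32.9 to 61.1 CPM in Fmr1 KO (median 40.9), with 0.30 ± 0.12 (adjusted p = 0.504 in edgeR). The highest libraries differed between them, Fmr1 KO replicates 4 and 5 for Itgav and replicates 1 and 2 for Itgb5. Itgav was at 0.21 without Fmr1 KO replicate 4, and Itgb5 at 0.18 without Fmr1 KO replicate 1.

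Itgb1, the most abundant member, ran from 75.9 to 113 CPM in WT (median 99.8) and from 78.1 to 132 CPM in Fmr1 KO (median 101). Its log2 fold change was 0.06 ± 0.11 (SE), and that of Itgb2 0.05 ± 0.14. Integrin chains of leukocytes (Itgad, Itgae, Itgal, Itgam and Itgax) had no member at an unadjusted p under 0.05.

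The genes that act on or with these chains were read from 4 lists. Over all genes tested, 7.96% had an unadjusted p under 0.05, 4.29% higher and 3.67% lower. In 0.213% the libraries lay apart with Fmr1 KO higher. Of 27 measured genes for collagen synthesis and crosslinking, 9 had an unadjusted p under 0.05, all higher, with a median log2 fold change of 0.21. Ppib, a prolyl isomerase of the endoplasmic reticulum that helps fold procollagen, was at 78.0 ± 4.26 CPM in WT and 92.8 ± 7.37 in Fmr1 KO (SD, n = 6), with no overlap between the libraries. Loxl3, a crosslinking lysyl oxidase, was at 4.20 ± 0.506 and 5.84 ± 1.01 CPM, also with no overlap. Their adjusted p in edgeR were 0.251 and 0.321. The other 7 were Leprel2, Pcolce, P4hb, P4ha3, Loxl1, Serpinh1 and Crtap.

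Of 13 measured genes in the list of other receptors for collagens and laminins, 3 were higher and 1 lower at an unadjusted p under 0.05. Bcam, the Lutheran glycoprotein that binds the laminin alpha5 chain, was at 13.05 ± 1.44 CPM in WT and 19.3 ± 4.03 in Fmr1 KO (SD, n = 6), with no overlap. Its log2 fold change was 0.56 ± 0.12 (SE), with an adjusted p of 0.181 in edgeR and 0.00659 in DESeq2. Cd47, kept in this list although it is known as a receptor for thrombospondin, was the lower one, at -0.21 ± 0.09.

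Of 26 measured other matrix ligands, 5 were higher and 3 lower at an unadjusted p under 0.05, with a median of 0.19. Tnr, the tenascin of perineuronal nets, was at -0.30 ± 0.10 (SE) and Hspg2, perlecan of the basement membrane, at 0.41 ± 0.15. The adaptors and kinases on the inner face of integrins had 3 of 32 higher and 0 lower, with a median of 0.03. Their share at an unadjusted p under 0.05, 9.38%, was near the 7.96% of all genes. Ilk, the integrin-linked kinase, was at 0.18 ± 0.07 and Tln1, talin, at 0.22 ± 0.09. No gene of the 4 lists had an adjusted p under 0.05 in edgeR.

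The members' values followed particular libraries within each genotype. WT replicate 4 held the highest WT value of 40 of 82 members, and Fmr1 KO replicates 1 and 4 each the highest Fmr1 KO value of 26. Fmr1 KO replicate 2 held the lowest of 28 and replicate 6 of 21. The median member stood at 0.37 above the WT mean (log2) in Fmr1 KO replicate 1, 0.28 in replicate 4, and -0.10 in replicate 2. WT libraries ran from -0.16 to 0.24, so Fmr1 KO replicates 1 and 4 lay above all of them and replicate 2 among them.

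**Figure D4:**
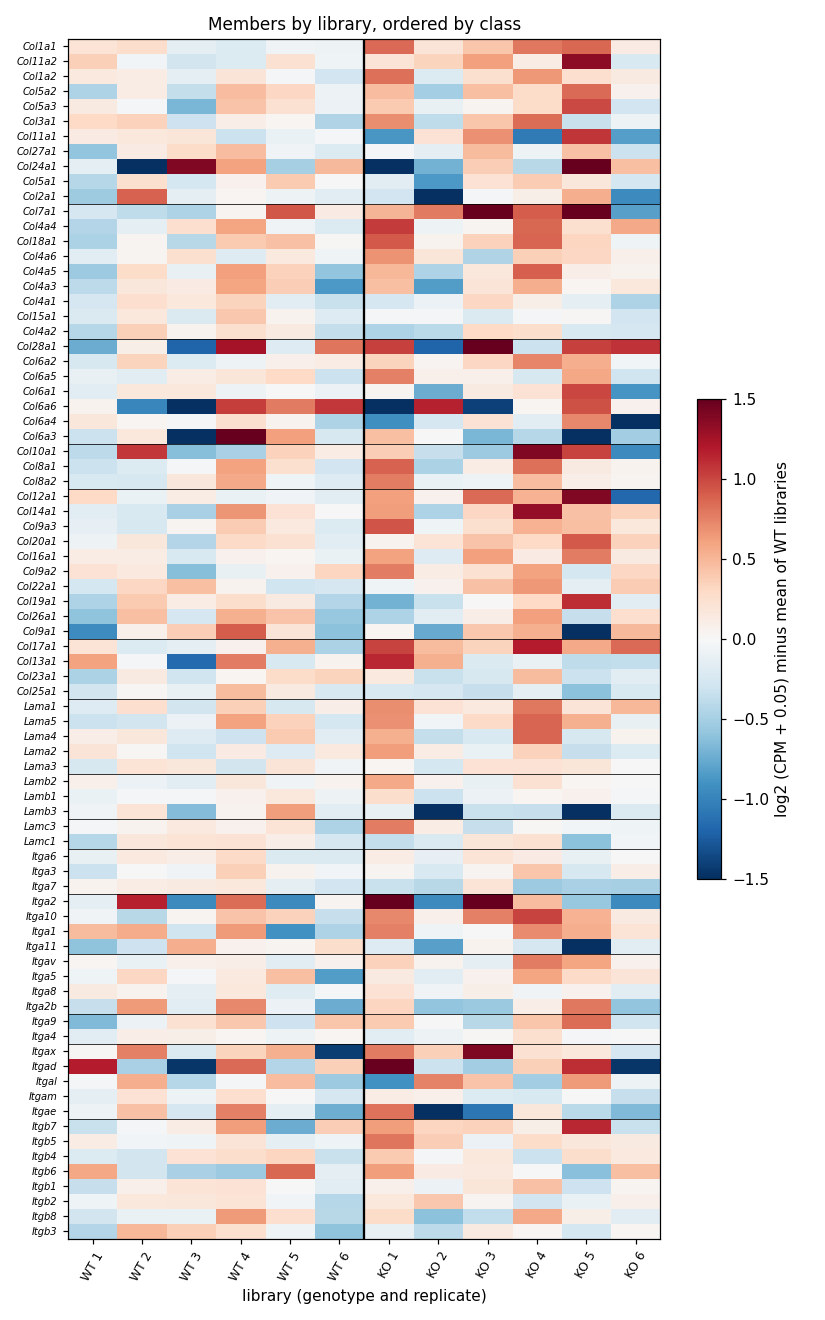
Log2 (CPM + 0.05) of each chain shown in each library relative to the mean of the 6 WT libraries, red for higher and blue for lower, ordered by class from fibrillar collagens at the top to integrin beta chains at the bottom. Fmr1 KO replicates 1 and 4 and WT replicate 4 show red across many rows of different classes, and Fmr1 KO replicate 5 is high in Col7a1, Col11a2, Col12a1 and Col19a1.

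Summed markers of CA1 neurons and of other cell types were compared between genotypes in 11 lists, and none had an adjusted p under 0.05. Over all genes tested, 51.4% had a positive log2 fold change. At an unadjusted p under 0.05, 4.29% were higher and 3.67% lower. All 10 endothelial markers were higher in Fmr1 KO, 6 at an unadjusted p under 0.05, and their sum ran from 54.7 to 77.3 CPM in WT and from 71.4 to 102 CPM in Fmr1 KO (exact permutation p = 0.0173, two-sided, adjusted p = 0.143 over 11 lists). All 8 astrocyte markers were higher, 5 at an unadjusted p under 0.05, with sums of 1911 to 2227 and 2058 to 3018 CPM (exact permutation p = 0.0260, adjusted p = 0.143). All 7 choroid plexus markers were higher, 5 at an unadjusted p under 0.05, with sums of 6432 to 11937 and 8362 to 17627 CPM (exact permutation p = 0.0671), of which Ttr made up 93.0%. Of the 10 fibroblast and meningeal markers 9 were higher and 3 had an unadjusted p under 0.05, with a median log2 fold change of 0.35, while their sum, 88.9% of it Igf2, differed by 0.02 (exact permutation p = 0.926).

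All 8 CA1 markers were lower in Fmr1 KO, 3 at an unadjusted p under 0.05, with sums of 7959 to 9762 CPM in WT and 7592 to 9077 CPM in Fmr1 KO (exact permutation p = 0.0693). WT replicate 4 had the lowest CA1 sum of its genotype and Fmr1 KO replicates 4 and 1 the lowest of theirs. The sums of mural, microglial, interneuron, oligodendrocyte precursor, and dentate, CA2 and CA3 markers differed by at most 0.09 on the log2 scale. Of 10 mural markers 8 were higher, 2 at an unadjusted p under 0.05. Of 8 oligodendrocyte markers 7 were lower, 2 at an unadjusted p under 0.05, and their sum differed by -0.17 (exact permutation p = 0.206). Every listed marker passed the filter of at least 15 reads in total, and zeros in single libraries were not counted. The part of these cell types in the members' values was not tested, and in these pooled immunoprecipitates more cells of a type and more RNA per cell cannot be told apart.

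**Figure D5:**
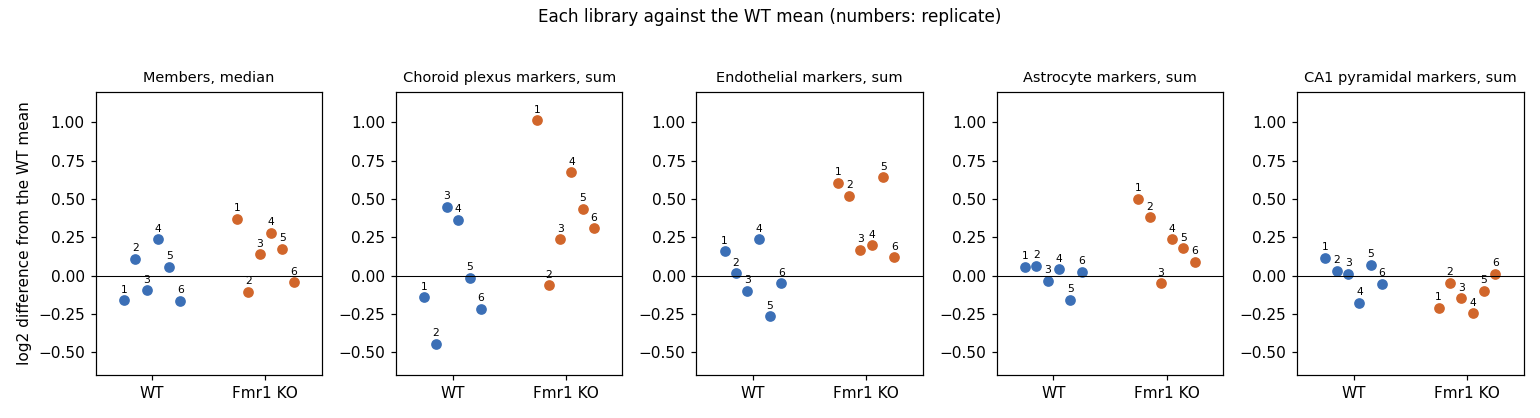
Log2 difference of each library from the WT mean, for the median over members and for the summed CPM of the choroid plexus, endothelial, astrocyte and CA1 marker lists, with points numbered by replicate. Fmr1 KO replicates 1 and 4 are highest for members and for choroid plexus markers and lowest for CA1 markers, and the genotypes overlap in every panel.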

How the data were processed

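Per the study's methods, the authors aligned stranded reads of ribosome-bound RNA with TopHat 2.1.1 and Bowtie2 2.2.8 to mm10 and deposited raw counts per gene from HTSeq 0.6.1p1, without normalization. The 12 libraries were grouped by their labels. Genes with at least 15 reads in total were fitted with edgeR 4.0.16 (TMM, quasi-likelihood test, Benjamini-Hochberg adjustment over 17823 genes) in R 4.3.3. SE is the fold change divided by the square root of F. Marker sums and chain ratios were compared by an exact permutation test over 924 splits. Alternatives were DESeq2 1.42.0, limma 3.58.1 voom, other scalings and filters, a replicate block, left-out libraries, and, added after the data were seen, DESeq2 with the same omissions and block. The script was checked on simulated counts. Coordinates and exons are those of RefSeq GRCm38.p6 and, for coding sequence and transcript lengths, GENCODE M21, which matched all 82 members.

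Named were Col1a1 and Col17a1, which the study lists from these same samples, the 12 members with the smallest p, members called by either tool or with separate libraries, the 3 highest per length in each family, and 2 partner genes per list. Other members are named as examples of their class, and the values of 1 member are not reported here, in text or figures. Members and lists were chosen with earlier results of these data known. Each p-value sets the genotype difference against the spread between libraries, each made from a separate pool of mice.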

Additional observations from a re-analysis of the deposited data

Results flagged for a closer look

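In 3 of 64 groups of 6 libraries examined (21 named members and 11 marker lists in each genotype), 1 library stood apart from the others by Dixon's ratio (the gap to its neighbour over the whole range) above the 95% critical value. Chance alone gives about 3.2 such groups. Col7a1 in WT replicate 5 was 0.912 CPM, with the others at 0.317 to 0.4996 (ratio 0.693). Col7a1 in Fmr1 KO replicate 5 was 4.17 CPM, with the others at 0.237 to 1.47 (ratio 0.687). Itga7 in Fmr1 KO replicate 3 was 36.7 CPM, with the others at 21.8 to 25.1 (ratio 0.778).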

How the results depend on the processing

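Of 399 comparisons of 21 named members with an alternative, 383 kept direction and side of the threshold, 2 passed it under DESeq2 (Col1a1 at 0.56 and Col17a1 at 0.74) and 14 reversed, all in members near 0. Lamb1 was 0.0206 with library totals in place of a size factor, and the other reversals came from single left-out libraries, with ranges of -0.0630 to 0.0524 for Lamb1, -0.0629 to 0.105 for Itga3, -0.0148 to 0.0863 for Itga6, -0.0236 to 0.129 for Itgb1 and -0.0304 to 0.111 for Itgb2. The cause was not tested.

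edgeR called 0 members under every alternative run, at a threshold of 0.1 too, while DESeq2 called 2. With 1 library left out, members higher at an unadjusted p under 0.05 numbered 8 to 20, and members lower 1 to 4 (4 without Fmr1 KO replicate 1 or WT replicate 3, 1 without WT replicate 4). DESeq2 then called 0 to 3 members, with 0 without Fmr1 KO replicate 1 or 4 or WT replicate 3, 4 or 6, and 1 without Fmr1 KO replicate 5 or WT replicate 1, 2 or 5. Col1a1 then ran from 0.49 to 0.64 and Col17a1 from 0.65 to 0.86 on the log2 scale. Other scalings moved the median of all genes by at most 0.03.

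Replicate numbers did not pair the libraries: same-number deviations correlated at -0.081 to 0.090, and 0 of 12 libraries correlated best with its own number. With the replicate block, edgeR called 0 members, 16 were higher and 3 lower at an unadjusted p under 0.05, their median was 0.10, and DESeq2 called 3. Depth limited the rarest chains, such as Itga2 with 52 reads in all.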
